A study of Homo sapiens with 12 samples.

Results

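SH-SY5Y cells that had received no peptide differed in many genes between controls of 6 h and of 24 h, and most of the genes that passed the test were lower at 24 h. The comparison rests on the 6 control arrays of a series of 12, chosen by their treatment label alone: 3 controls of 6 h and 3 controls of 24 h. SH-SY5Y is a human neuroblastoma line, grown here in D-MEM/F-12 medium, and its total RNA was read on Affymetrix arrays. The other 6 arrays are of the same line with amyloid-β (Ab in the labels), 3 with the oligomeric form and an incubation of 6 h and 3 with the fibrillar form and an incubation of 24 h. The labels state no vehicle for the controls and leave unstated whether these hours refer to how long peptide was aged or to how long cells were kept in the dish. They do not say that the 3 replicates of a group came from separate cultures, so each p-value reflects the spread among these arrays alone, which may be technical.

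SH-SY5Y cells derive from the sympathetic nerve lineage, and they carry its transcription factors and the enzymes that make noradrenaline while they keep dividing. In cultured cells of this kind, the folding enzymes of the endoplasmic reticulum (ER) follow the load of secreted protein. Genes of the actin cytoskeleton follow the attachment and shape of the cell through the factor SRF and its cofactors MRTFA and MRTFB, which monomeric actin holds back. Immediate early genes answer growth factors within minutes and then fade. These are textbook properties of the pathways and not results of these arrays.

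All values are log2 signals per probe set, and a change is the mean of the 24 h controls less the mean of the 6 h controls. A gene was read from its brightest probe set that has 1 gene symbol, provided that its mean over the 12 arrays reached the median of all probe sets (log2 3.79, a signal of 13.8), which left 11767 genes. Neuroblastoma markers were present, with 14 of 15 above that level and a summed signal of 23963 to 26709. Among their called members RET and STMN2 were higher and DBH, GAP43 and PHOX2A lower at 24 h. In such bulk RNA, fewer cells of a type and less RNA per cell cannot be told apart. Of 10 measured glial, 10 epithelial and 9 blood or endothelial markers, 1, 2 and 2 were above it, and the summed signals lay between 38.1 and 127 in the 6 arrays. Mesenchymal markers, which the line also expresses, had 12 of 17 above it, and their sums overlapped between the groups (14802 to 15843 at 6 h, 15424 to 17576 at 24 h). The first principal component of the 6 arrays held 39.3% of their variance and separated the groups.

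Some measures of the arrays themselves also moved with time. The 3′ less 5′ signal of GAPDH was 0.77 to 0.83 at 6 h and 0.47 to 0.52 at 24 h, and that of ACTB was 2.82 to 3.25 and 2.34 to 2.65. Signal from the 5′ part of 18S rRNA went from 9.31 to 10.25 at 6 h to 11.41 to 11.79 at 24 h (a difference of 1.89), while its 3′ part overlapped between the groups. The BioB spike-in was lower by 0.43 (8.07 ± 0.10 and 7.64 ± 0.11, SD, n = 3), and the array median was 3.95 ± 0.06 against 4.08 ± 0.04. None of the 9 measures could pass with 3 against 3 arrays (two-sided exact permutation test, smallest possible p = 0.1, adjusted p = 0.15). Their part in the gene results was not tested, except that the mean of both 3′ less 5′ measures was added to the model as a covariate. Since this covariate separated the groups too, it takes up part of the time change by construction, and 79 of the 179 called genes named by rule kept their call with it.

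With limma, 1375 of the 11767 genes differed between the control groups at an adjusted p under 0.05, which is 11.7% of the genes tested. Of these, 443 (3.76%) were higher and 932 (7.92%) were lower at 24 h. The 3 values of each group lay apart for 1356 of the called genes and for 32.6% of all genes. Changes were mostly modest, with a median of 0.44 for the called rises and −0.49 for the called falls, and 18 rises and 63 falls were 2-fold or more. A median SE of 0.13 sets the precision that 3 arrays a group allow. The median level was 8.26 for the called rises and 8.28 for the called falls, against 7.40 for all genes. With the filter set at the 75th percentile, 442 of 7695 genes were called higher and 913 lower. These are larger shares than those of all genes, so lists of bright genes meet a higher background. The balance of falls over rises depended on the scaling and on the choice of probe set. As deposited, 67.8% of calls were lower. When each array was centred on its median 92.7% were (140 higher, 1768 lower), and the median change of all genes moved from −0.02 to −0.15. With the mean of all probe sets per gene 57.6% were lower (524 higher, 711 lower), and the median change was 0.01. Of the 443 rises 270 kept their call there, and of the 932 falls 618 did. Of 780 called genes with other probe sets above the level, 497 had all of them of the same sign. Single arrays moved the counts by more than 1.5 times, with 241 higher and 591 lower without 24 h replicate 1, 178 and 557 without 24 h replicate 3, and 196 and 523 without 6 h replicate 2. With the 3′ less 5′ covariate 159 were higher and 308 lower.

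**Figure D1:**
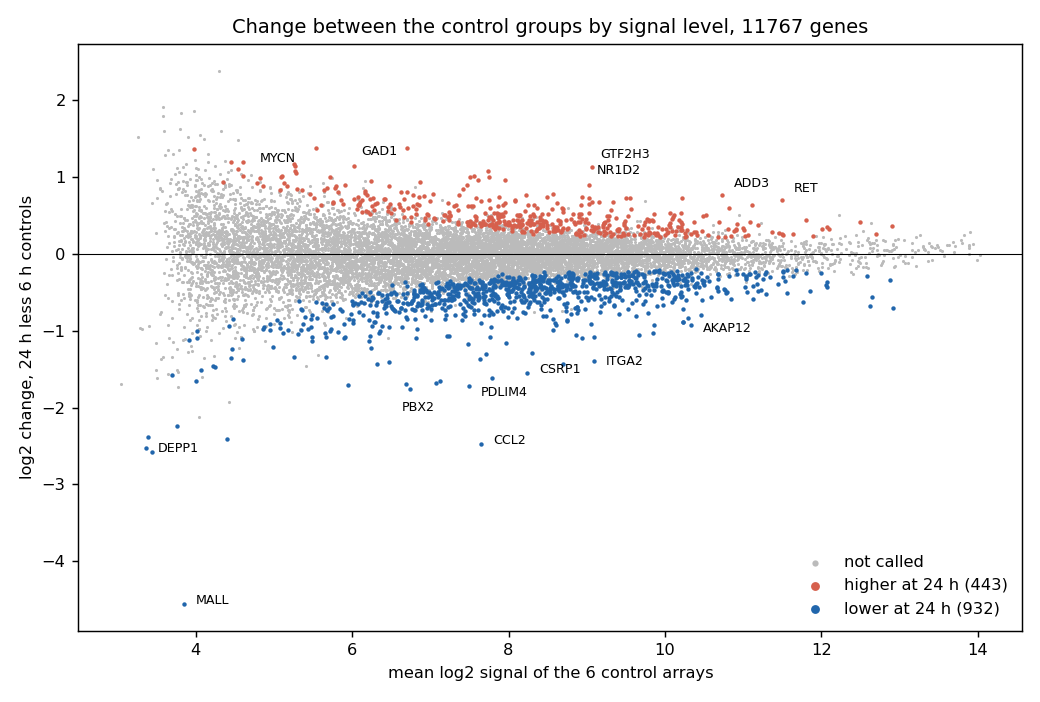
Each point is a gene, with the mean log2 signal of the 6 control arrays on the horizontal axis and the log2 change from 6 h to 24 h controls on the vertical axis. Called genes (limma, adjusted p under 0.05) are coloured, 443 higher and 932 lower. MALL, CRY2, DEPP1, TMEM158 and LYG1 have 24 h means below the filter level of 3.79, so the size of their fall is uncertain, and the largest called fall with both group means above it is CCL2 at −2.48.

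The clearest fall belonged to CSRP1, a LIM domain protein of the actin cytoskeleton. Its log2 signal was 8.98, 9.09 and 8.98 at 6 h and 7.40, 7.75 and 7.24 at 24 h, so every 24 h value lay more than 1 unit below every 6 h value (−1.56, SE 0.11, adjusted p = 1.11e-06). PTGS1, the cyclooxygenase COX-1, read 8.74, 8.61 and 8.43 at 6 h and 7.03, 7.08 and 6.81 at 24 h (−1.62, adjusted p = 1.11e-06). PDLIM4, which binds α-actinin through its PDZ domain, read 8.29, 8.49 and 8.29 at 6 h and 6.67, 6.67 and 6.56 at 24 h (−1.73, adjusted p = 4.6e-06). For these genes the groups were far apart in relation to the scatter within them, and each remained called in all 6 fits that left out 1 control array. The probe sets read for PTGS1 and PDLIM4 are of the type that may also bind related transcripts (suffix _x_at), and their 3 and 2 other probe sets above the level had changes of the same sign.

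AKAP12, a scaffold for protein kinase A, fell by 0.92 and LMNA, the gene of the nuclear lamins A and C, fell by 1.08. Their values were 10.72, 10.93 and 10.74 at 6 h and 9.80, 9.97 and 9.85 at 24 h for AKAP12 and 9.50, 9.83 and 9.58 at 6 h and 8.60, 8.68 and 8.38 at 24 h for LMNA. TNFRSF12A, the receptor of the cytokine TWEAK, fell by 1.43, and the small heat shock protein gene HSPB1 fell by 0.91 with 24 h values that spanned only 8.57 to 8.61. VCL, the gene of vinculin, completes the 8 falls with the smallest p and is described with the actin genes. All 8 were also called in the peptide arrays, with changes from −1.11 for CSRP1 to −0.44 for TNFRSF12A.

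The largest falls were a mixed set, and for MALL, DEPP1, TMEM158, LYG1 and CRY2 the 24 h mean lay below the filter level (1.57, 2.10, 3.19, 2.20 and 2.15). Those genes passed the filter through the other groups, and the size of their fall is uncertain. MALL, a membrane raft protein of the MAL family, fell by 4.56, but its 24 h values were scattered from −0.35 to 4.05, mostly below the level of the filter, against 6.00, 6.09 and 6.29 at 6 h, and its call was lost with the 3′ less 5′ covariate (−3.18, adjusted p = 0.126), as were those of DEPP1 (−2.20, 0.0521), TMEM158 (−2.28, 0.116) and CCL2 (−2.02, 0.107). DEPP1, a FOXO-induced regulator of autophagy, read 4.79, 4.97 and 4.13 at 6 h and 1.70, 2.32 and 2.26 at 24 h, so it went below the level of the filter at 24 h (−2.53, adjusted p = 0.000817). CCL2, a chemokine that draws monocytes, had both group means above the filter level, at 8.84, 9.46 and 8.37 at 6 h and 6.61, 7.03 and 5.60 at 24 h (−2.48, SE 0.45, adjusted p = 0.00238). PBX2, a homeobox factor and partner of HOX proteins, fell by 1.76, ISLR2, a cell surface protein of growing axons, by 1.69, and PHLDA2, an imprinted growth inhibitor, by 1.68, each in all 6 leave-one-out fits. TMEM158 (−2.41) and the kinase gene STK16 (−1.70) also kept their call, while LYG1 (−2.38) lost it without 24 h replicate 1 or any of the 6 h replicates, (adjusted p 0.0542 to 0.0908). Of the 2 other probe sets of PBX2, 1 had the opposite sign.

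Among the rises, NR1D2, the gene of the clock repressor REV-ERBβ, had the smallest p. It read 8.58, 8.48 and 8.70 at 6 h and 9.46, 9.39 and 9.59 at 24 h (0.89, SE 0.09, adjusted p = 4.5e-05), with all 24 h values above 9.3 and all 6 h values below 8.8. ADD3, an adducin that caps actin under the membrane, read 10.48, 10.27 and 10.29 at 6 h and 11.05, 11.05 and 11.22 at 24 h (0.76, adjusted p = 4.78e-05). RET, the receptor for the GDNF family and a marker of this lineage, read 11.08, 11.11 and 11.25 at 6 h and 11.78, 11.73 and 12.03 at 24 h (0.70, adjusted p = 9.3e-05). Both of the other probe sets of RET and all 3 of ADD3 above the level moved the same way. FOLR1, a folate receptor, had 7.17, 7.02 and 7.56 at 6 h and 8.20, 8.22 and 8.33 at 24 h. CPED1 rose by 0.97, CXADR, the coxsackievirus and adenovirus receptor, by 0.74, and TSPAN6, a tetraspanin, by 0.60. These 7 remained called without any 1 control array, with the 3′ less 5′ covariate, and in the peptide arrays. The 1 other probe set of CPED1 had the opposite sign.

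**Figure D2:**
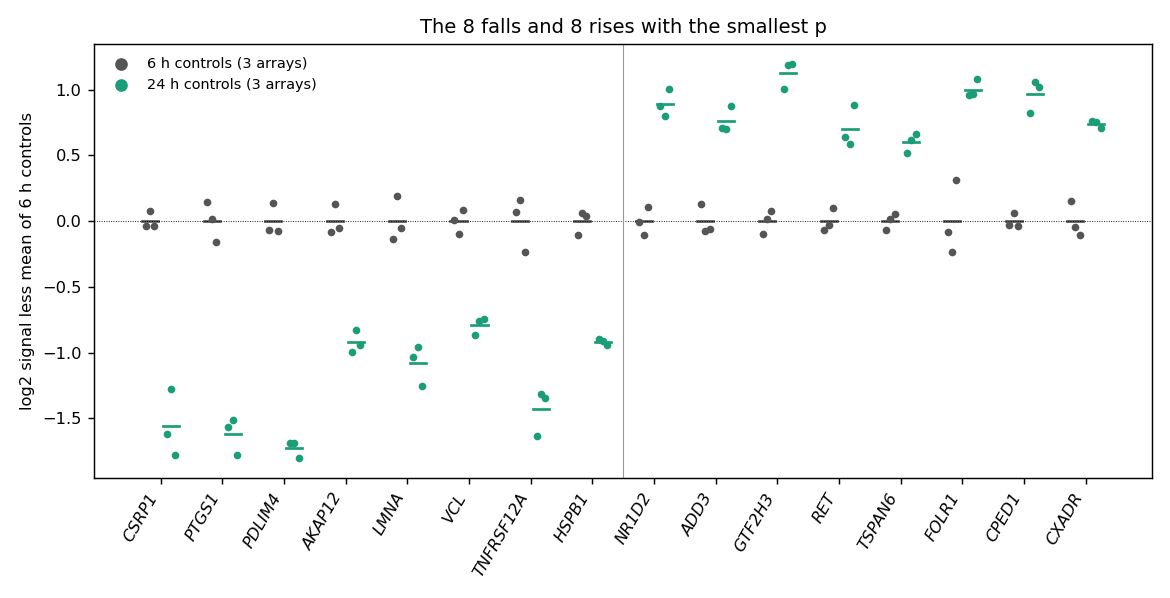
Log2 signals of the 8 falls (left of the line) and 8 rises (right) with the smallest p, each less the mean of its 3 values at 6 h, with one dot per array and a bar at the group mean. These 16 genes were picked among those whose groups lie apart. That the 24 h arrays lie wholly to one side of the 6 h arrays therefore follows from the choice. Groups lie apart in 1356 of the 1375 called genes and in 32.6% of all genes.

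Larger rises belonged mostly to dimmer genes. GAD1, which makes the transmitter GABA, read 5.65, 5.14 and 5.57 at 6 h and 6.70, 6.49 and 6.58 at 24 h (1.14, adjusted p = 0.00255), and TGFB3, a transforming growth factor β, read 4.75, 4.79 and 4.55 at 6 h and 6.03, 5.79 and 5.72 at 24 h (1.15, adjusted p = 0.00397). GINS4, a subunit of the replicative helicase, rose by 1.37 and kept its call in all 6 leave-one-out fits, though 1 of its 3 other probe sets had the opposite sign. XRCC2, a DNA repair gene (1.08), and GTF2H3, a subunit of the transcription factor TFIIH (1.13), were both read from probe sets marked _x_at. The calls of NXPE3 (1.37), ATP2B2 (1.36), SOX5 (1.20), SOSTDC1 (1.19) and the pseudogene BTF3P12 (1.16, also _x_at) were each lost in 4 or 5 of the 6 leave-one-out fits. All of these were lost without 24 h replicate 1 (adjusted p 0.0551 to 0.101) and without 24 h replicate 3 (0.0539 to 0.146), and each was lost without at least 1 of the 6 h replicates (0.0616 to 0.157). The 6 h mean of ATP2B2 (3.30) lay below the filter level, so the size of its rise is uncertain. Of all called genes, 134 rises and 407 falls kept their call in every one of those fits. Probe sets marked _x_at made up 11.5% of the called rises, 5.9% of the called falls and 6.45% of all genes.

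Of 22 tested genes of ER folding and the unfolded protein response, 11 were called lower at 24 h and 0 higher (50% against 7.92% of all genes), with a median change of −0.28 against −0.02. All 22 also passed the filter at the 75th percentile, where 913 of 7695 genes were called lower. This list and those below were chosen with earlier results of these data known, so their shares are descriptions. The mean of the 22 genes, set to 0 at 6 h, was −0.28, −0.29 and −0.29 on the 24 h arrays and between −0.02 and 0.01 on the 6 h arrays. HSPA5, the main ER chaperone (BiP), read 12.04, 12.14 and 12.07 at 6 h and 11.47, 11.41 and 11.48 at 24 h, with an SD of 0.05 and 0.04 (n = 3) and a change of −0.63 (SE 0.07, adjusted p = 7e-05). PDIA4, a disulfide isomerase, read 11.13, 11.20 and 11.07 at 6 h and 10.57, 10.52 and 10.56 at 24 h (−0.59, adjusted p = 6.17e-05). Neither had overlapping groups, and the 1 other probe set of each fell too. The calcium-binding chaperone gene CALR fell by 0.79 and HYOU1, the nucleotide exchange factor of HSPA5, by 0.67. Among the genes not called, HSP90B1 (−0.13), ATF6 (0.18) and ERN1 (−0.02), the sensors ATF6 and IRE1 among them, are named to show the list's other side, a choice made after their values were seen. The peptide arrays gave 9 lower and 2 higher with a median of −0.24, and the difference between both changes was called for 0 of the 22 (limma, 2 at an unadjusted p under 0.05). The count was 9 to 10 when any 1 control array was left out and 6 with the 3′ less 5′ covariate.

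Many ER chaperone genes carry an ER stress element, a CCAAT box and a CCACG box 9 bases apart, which binds the factors NF-Y and ATF6. Promoter windows of 250 bases before the RefSeq start (GRCh38.p14) were read for the 11 called members, and this exact element was searched on both strands as CCAAT, any 9 bases, CCACG, a search added after the results were known. It stood in 5 of the 11 windows and in 0.074% of 35116 promoter windows of the same length. Of the 10 members not called that had a window, 1 (HSP90B1) held it. A CCAAT box, which the element contains, stood in 10 of the 11 called, in 9 of the 10 not called and in 32% of all windows. The members were gathered for their known role, so a shared element comes with the list, and a match is a description and not a measured site. The 5 elements are set out 5′ to 3′ on the strand that reads CCAAT first, with both boxes in capitals.
CALR (chr19:12938384-12938402, minus strand): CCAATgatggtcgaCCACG
CANX (chr5:179698778-179698796, plus strand): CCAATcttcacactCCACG
CRELD2 (chr22:49918554-49918572, minus strand): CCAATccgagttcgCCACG
HSPA5 (chr9:125241391-125241409, minus strand): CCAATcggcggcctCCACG
XBP1 (chr22:28800603-28800621, minus strand): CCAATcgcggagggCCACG
HSPA5 and PDIA4, the called members with the smallest p, are shown whole, 5′ to 3′ on the strand of the gene, with matches in capitals. The window of HSPA5 (chr9:125241344-125241593, minus strand) held 4 CCAAT boxes, the one nearest the start inside the ER stress element from −66 to −48. That of PDIA4 (the first of 2 RefSeq entries, chr7:149028491-149028740, minus strand) held 3 CCAAT boxes and no ER stress element by these letters. Neither window held CACGTG (an E-box), TTTGAA, TGACGTCA (a cyclic AMP element) or a CArG box.
HSPA5 promoter: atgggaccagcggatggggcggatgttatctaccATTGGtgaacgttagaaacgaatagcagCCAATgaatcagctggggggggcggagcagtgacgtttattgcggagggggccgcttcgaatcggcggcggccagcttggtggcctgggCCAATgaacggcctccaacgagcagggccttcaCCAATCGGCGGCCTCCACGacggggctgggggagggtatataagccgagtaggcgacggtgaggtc
PDIA4 promoter: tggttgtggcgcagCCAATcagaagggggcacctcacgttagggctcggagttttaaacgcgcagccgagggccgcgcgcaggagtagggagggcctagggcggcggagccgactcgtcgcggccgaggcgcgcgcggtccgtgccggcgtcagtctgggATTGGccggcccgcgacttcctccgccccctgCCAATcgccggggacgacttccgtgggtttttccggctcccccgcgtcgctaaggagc
Of the genes with the element, XBP1, a transcription factor of the same response, read 8.78, 8.56 and 8.88 at 6 h and 7.99, 8.17 and 8.07 at 24 h (−0.66, adjusted p = 0.00208), though its 1 other probe set had the opposite sign. CRELD2, a secreted ER protein, fell by 0.49 and CANX, the lectin chaperone calnexin, by 0.32. Those 3 genes are named because their windows held the element.

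The actin cytoskeleton gave the next largest share, with 11 of 26 tested members called lower (42.3%), 0 called higher and a median change of −0.25. Structural genes of fibres and adhesions led. VCL, which links integrin adhesions to actin, read 10.86, 10.75 and 10.94 at 6 h and 9.98, 10.09 and 10.11 at 24 h (−0.79, SE 0.07, adjusted p = 1.14e-05). MYH9, the heavy chain of non-muscle myosin IIA, read 7.29, 7.53 and 7.28 at 6 h and 6.39, 6.23 and 6.20 at 24 h (−1.09, adjusted p = 7e-05). ACTA2, smooth muscle α-actin, read 8.74, 8.51 and 8.41 at 6 h and 7.34, 7.60 and 7.23 at 24 h (−1.16, adjusted p = 9.54e-05). In all 3 genes the groups did not overlap. ACTB, β-actin, fell by 0.67, from a mean of 12.96 to 12.29, read from a probe set marked _x_at. The remaining called members were ACTN1, CFL1, PFN1, TAGLN2, TPM2, TPM4 and ZYX, with changes between −1.09 and −0.34, given so that every called member is accounted for. The 1 other probe set of CFL1 and of TAGLN2 had the opposite sign.

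In the peptide arrays 7 of the 26 were called lower and 2 higher, with a median of −0.11. The change of ACTA2 there was −0.06, and its difference from the control change had an adjusted p of 0.0543, so it did not pass. Leaving out 1 control array gave 8 to 11 called lower, and probe sets free of the _x_at and _s_at marks gave 7. A CArG box, the SRF site (CC, then 6 bases that are each A or T, then GG), a search also added after the results were known, stood in 1 of the 10 called members with a window (TPM4), in 4 of the 15 not called and in 1.16% of all windows.

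**Figure D3:**
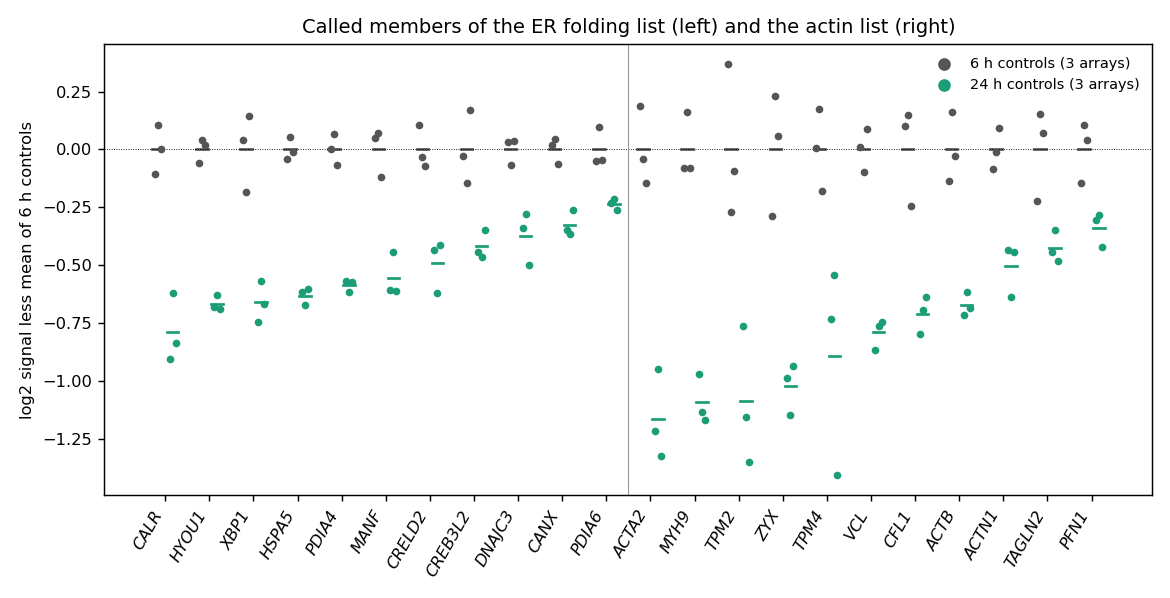
The 11 called members of the ER folding list (left of the line) and the 11 of the actin list (right), with each array's log2 signal less the gene's mean at 6 h and a bar at the group mean. Every 24 h array lies below the 6 h arrays of its gene, and the falls of the actin genes reach further (ACTA2 at −1.16) than those of the ER genes (CALR at −0.79) by their means.

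Genes of adhesion and matrix were divided. Of 38 tested, 7 were called lower (18.4%) and 4 higher (10.5%). ITGA2, the collagen-binding integrin α2 chain, fell most, from 9.79, 9.92 and 9.67 at 6 h to 8.35, 8.56 and 8.28 at 24 h (−1.40, SE 0.16, adjusted p = 7.69e-05). Its other probe set, dimmer (mean level 7.12), had a change of −0.49 (limma, adjusted p = 0.326 over all probe sets). TIMP1, an inhibitor of matrix proteases, read 9.06, 9.15 and 8.98 at 6 h and 8.50, 8.41 and 8.36 at 24 h (−0.64). The fall of LAMC1, a laminin chain (−0.43), lost its call without 24 h replicate 2 (adjusted p = 0.0563) or 6 h replicate 3 (0.0627), and that of ITGAV (−0.36) without 24 h replicate 2 (0.0507) or 6 h replicate 2 (0.0691). FBN1, the microfibril protein fibrillin, rose by 0.44 in all 6 leave-one-out fits, and ITGB1, ITGB5 and LAMB1 were the other called rises. Those 3 calls were all lost without 24 h replicate 3 (adjusted p 0.12 to 0.155) or 6 h replicate 1 (0.0718 to 0.127), and each without at least 2 other control arrays (0.0507 to 0.122). Other probe sets of ITGB1 had changes of 0.61 (limma, adjusted p = 0.00111 over all probe sets), 0.43 (0.00238) and, in a dim one, −0.54 (0.623). That of LAMB1 had 0.35 (0.0102), and those of ITGB5 had 0.20 (0.52) and −0.43 (0.429). YAP/TEAD genes, which also answer cell attachment, had 4 of 16 called lower (25% against 7.92% of all genes) and 0 higher. These were the secreted matrix protein CCN1 (9.30, 9.13 and 9.21 at 6 h and 8.69, 8.44 and 8.44 at 24 h), TEAD2 (−0.68), AMOTL2 (−0.40) and YAP1 (−0.35). The call of YAP1 was lost without 24 h replicate 1 or 3 or 6 h replicate 1 or 3 (adjusted p 0.0661 to 0.0896).

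Genes of amino acid supply under the stress factor ATF4 went both ways. Of 32 tested, 10 were called lower (31.2%) and 3 higher (9.38%), with a median change of −0.21. WARS1, the tryptophanyl-tRNA synthetase, read 8.27, 8.63 and 8.35 at 6 h and 7.75, 7.73 and 7.50 at 24 h (−0.76, adjusted p = 0.000327), and SLC7A1, a carrier of arginine and lysine, read 10.17, 10.41 and 10.18 at 6 h and 9.68, 9.84 and 9.51 at 24 h (−0.58, adjusted p = 0.000578). EIF4EBP1, an inhibitor of cap-dependent translation, fell by 0.63, and SHMT2, the mitochondrial serine hydroxymethyltransferase, fell by 0.70. PSPH, which completes serine synthesis, rose by 0.42, with 1 of its 2 other probe sets of the opposite sign. CTH (0.63) lost its call without 24 h replicate 1 (adjusted p = 0.0687) or 6 h replicate 2 (0.0508), and DDIT4 (0.44) lost it without any 1 of the 6 arrays (0.0706 to 0.135). In the peptide arrays 8 were called lower and 4 higher, with a median of 0.01, and the difference passed for 0 of 32 (limma, 9 at an unadjusted p under 0.05). Heat shock genes had 4 of 16 called lower (25% against 7.92% of all genes), HSPB1, FKBP4, HSP90AB1 and BAG3. The call of FKBP4 was lost without any 1 control array (adjusted p 0.0607 to 0.124). BAG3, a cochaperone of HSP70, read 7.37, 7.39 and 7.38 at 6 h and 7.01, 6.76 and 6.69 at 24 h (−0.56). HSP90AB1, the constitutive HSP90, fell by 0.40 in the probe set read here, but its 2 other probe sets had the opposite sign.

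The lists of cell cycle genes held called falls and no called rise, though GINS4, a replication gene outside them, rose as given above. Of 49 mitosis genes, 14 were called lower (28.6%), 0 higher, and 46 had a change below 0 (median −0.24). Of 44 genes of DNA replication, 9 were called lower (20.5%), 0 higher, and 41 were below 0 (median −0.21). MCM5, a subunit of the replicative helicase, read 8.96, 9.02 and 8.83 at 6 h and 7.48, 7.87 and 7.60 at 24 h (−1.29, adjusted p = 0.000101). MCM2, MCM3 and MCM7, other subunits of that helicase, fell by 0.67, 0.54 and 0.49. HJURP, the chaperone that places the centromeric histone, read 8.54, 8.64 and 8.61 at 6 h and 7.87, 7.96 and 7.66 at 24 h (−0.77, adjusted p = 0.000295), and CDC20, the activator of the anaphase-promoting complex, read 9.15, 9.29 and 8.87 at 6 h and 8.47, 8.37 and 8.23 at 24 h (−0.74, adjusted p = 0.00119). Each of these genes remained called in all 6 leave-one-out fits.

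The proliferation marker MKI67 had a change of −0.44 (adjusted p = 0.064) and TOP2A one of −0.13, and neither passed. On the list means, 24 h replicate 2 lay nearest to the 6 h arrays, at −0.06 for replication and −0.14 for mitosis, against −0.33 and −0.38, and −0.25 and −0.36, on the other 24 h arrays. Without it 13 replication genes and 14 mitosis genes were called lower. Without 24 h replicate 1 the counts were 5 and 7, without 24 h replicate 3 they were 4 and 6, without 6 h replicate 2 they were 5 and 4, and without 6 h replicate 1 they were 6 and 8. With the 3′ less 5′ covariate 4 of each were called lower. In the peptide arrays 10 replication genes and 13 mitosis genes were called lower, with medians of −0.20 and −0.19.

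Among 17 genes of the G1 phase, 4 were called lower (23.5% against 7.92% of all genes) and 0 higher. CCND1, cyclin D1, read 11.22, 11.46 and 11.43 at 6 h and 10.89, 11.11 and 10.93 at 24 h (−0.39, adjusted p = 0.00683), and its partner kinase CDK4 fell by 0.34, and CDK2 by 0.41, though the 1 other probe set of CDK2 had the opposite sign. CDK6 fell by 0.26, but its 5 other probe sets had the opposite sign, and its call was lost without 24 h replicate 2 (0.0637) or 6 h replicate 1 (0.0577) or 2 (0.0715). CDKN1A, the inhibitor p21, had a change of −0.29 (adjusted p = 0.189). MYCN, the oncogene of the neuroblastoma lineage, read 4.94, 5.46 and 5.26 at 6 h and 6.11, 6.55 and 5.99 at 24 h (0.99, SE 0.24, adjusted p = 0.0122), and its call was lost without 24 h replicate 2 (0.0555) or 6 h replicate 1 (0.0547). MXI1, which opposes MYC at shared sites, rose by 0.58 in all 6 leave-one-out fits, and MYC itself had a change of 0.31 (adjusted p = 0.0813).

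Splicing factors and hnRNP proteins had 14 of 44 called lower (31.8%) and 2 higher, although their median change, −0.04, was close to that of all genes. HNRNPL, a regulator of alternative splicing, read 9.84, 9.86 and 9.70 at 6 h and 9.02, 9.04 and 8.99 at 24 h (−0.78, adjusted p = 3.56e-05), and PTBP1, which represses neuronal exons, read 10.90, 11.09 and 11.02 at 6 h and 10.49, 10.55 and 10.57 at 24 h (−0.47, adjusted p = 0.000553). PRPF8, the core protein of the spliceosome, fell by 0.41. The 2 called rises were SRSF5 (0.30) and SF3B1 (0.26), the first lost without 24 h replicate 3 (adjusted p = 0.0593) or 6 h replicate 1 (0.0572) and the second without any control array but 6 h replicate 3 (0.0777 to 0.154). Leaving out 24 h replicate 1 or 3 gave 7 and 6 called lower, and leaving out 6 h replicate 1 or 2 gave 8 each. The 1 other probe set of SF1, which fell by 0.53, had the opposite sign. Cytosolic ribosomal proteins stood apart from this, with 1 of 53 called higher (RPL34, 0.37), 0 lower, and 42 above 0 (median 0.08). Ribosome biogenesis had 4 of 31 called lower (12.9% against 7.92% of all genes: DDX21, NOP58, PES1 and UTP4, median −0.03), and the proteasome had 4 of 27 (14.8%: PSMB3, PSMC4, PSMD1 and PSMD2, median −0.06). The calls of NOP58, PES1, PSMB3, PSMD1 and PSMD2 were all lost without 6 h replicate 2 (adjusted p 0.0523 to 0.188), and each without 1 to 3 other control arrays (0.0527 to 0.153). The other probe set of DDX21, nearly as bright, had a change of 0.01.

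Immediate early genes had the lowest median of the lists with at least 12 tested members, −0.44, yet only 5 of 21 were called lower (23.8%) and 0 higher. KLF6, a zinc finger factor, read 9.88, 9.84 and 9.99 at 6 h and 9.21, 9.34 and 9.24 at 24 h (−0.64, adjusted p = 0.00719) and kept its call in all 6 leave-one-out fits. Another probe set of KLF6, about as bright, had a change of −0.32 (limma, adjusted p = 0.184 over all probe sets). Dimmer ones had −0.55 (0.0253) and −0.13 (0.718). IER2 read 9.31, 9.31 and 9.30 at 6 h and 8.71, 8.72 and 8.74 at 24 h, with tight control groups but an SE of 0.17 in the model, which pools the spread over all 4 groups. Its call (adjusted p = 0.0367) was lost without any 1 control array (0.0768 to 0.0964). IER5 was the fifth called member. PLK2, a kinase induced by serum and activity, fell by 0.50 but not without 24 h replicate 1 or 3 or 6 h replicate 2 or 3 (adjusted p 0.056 to 0.0831), and JUND fell by 0.43 but not without 24 h replicate 1 or 3 or 6 h replicate 1 (0.0698 to 0.0738). EGR1 (8.85, 9.12 and 9.18 at 6 h and 8.54, 8.25 and 8.14 at 24 h) and FOS (4.57, 3.96 and 5.01 at 6 h and 4.69, 3.49 and 3.87 at 24 h) did not pass in the probe sets read here, and FOS was dim with overlapping groups. The other probe sets of EGR1 had changes of −1.25 (limma, adjusted p = 0.0448 over all probe sets) and −0.49 (0.467). In the peptide arrays the median was 0.37, with 7 called higher and 0 lower. The difference passed for 0 of the 21 genes (limma, 13 at an unadjusted p under 0.05, lowest adjusted p 0.0725 for PLK2). With the 3′ less 5′ covariate the median turned to 0.07.

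Clock genes were split, with 2 of 13 called higher and 2 lower (15.4% each, against 3.76% higher and 7.92% lower among all genes). NR1D2 led the rises, and RORA, which competes with it for the same sites, rose by 0.55 but lost its call without 24 h replicate 1 (0.0741) or 3 (0.0564) or 6 h replicate 2 (0.073). CRY2 fell by 2.58 (4.93, 4.98 and 4.28 at 6 h and 1.05, 4.36 and 1.04 at 24 h), with 24 h replicate 2 near the 6 h values and the others near the floor. Its call was lost without 24 h replicate 1 or 3 or 6 h replicate 1 or 2 (adjusted p 0.0871 to 0.126), and that of NPAS2 (−0.73) without any 1 control array (0.0556 to 0.146). DBP, a clock output, did not pass (0.47, adjusted p = 0.221), and PER1 and NR1D1 were not analysed here.

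The lists with the largest shares of rises were FOXO targets, with 6 of 19 called higher (31.6%) and 1 lower, and Wnt genes, with 4 of 15 called higher (26.7%) and 1 lower. YPEL5 read 8.79, 8.68 and 8.84 at 6 h and 9.21, 9.12 and 9.34 at 24 h (0.46, adjusted p = 0.00382) and was called in all 6 leave-one-out fits. PDK4, which holds back pyruvate oxidation (0.52), SESN3, a sestrin (0.38), and KLF15 (0.57) rose too, but all lost their call without 24 h replicate 1 or 3 or 6 h replicate 2 (adjusted p 0.0615 to 0.194). PDK4 also lost it without 6 h replicate 1 (0.0728) or 3 (0.0714) and SESN3 without 6 h replicate 1 (0.11). The others called higher were FOXO3 and HBP1. DEPP1 was the member that fell. Of the Wnt genes, SFRP1, a secreted inhibitor, read 8.92, 8.57 and 8.95 at 6 h and 9.49, 9.26 and 9.72 at 24 h (0.67, adjusted p = 0.00433) and kept its call throughout. LGR4, the R-spondin receptor (0.70), DKK3 (0.37) and TLE1 (0.38) also rose. The call of LGR4 was lost without 24 h replicate 2 or 6 h replicate 1 or 2 (0.0522 to 0.0709), and those of DKK3 and TLE1 without 24 h replicate 1 or 3 or 6 h replicate 2 or 3 (0.0601 to 0.183). LEF1, a transcription factor of the pathway, fell by 0.35, but not without 24 h replicate 2 (0.052) or 6 h replicate 3 (0.0519). HOX genes had 2 of 12 called higher (16.7% against 3.76% of all genes) and 0 lower. These were HOXD4 (6.15, 6.14 and 6.19 at 6 h and 6.94, 6.66 and 6.82 at 24 h) and HOXD8 (0.63), both in all 6 leave-one-out fits. In the peptide arrays HOXD4 had −0.22 and HOXD8 −0.05, with an adjusted p of 0.0987 for the difference of HOXD4.

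**Figure D4:**
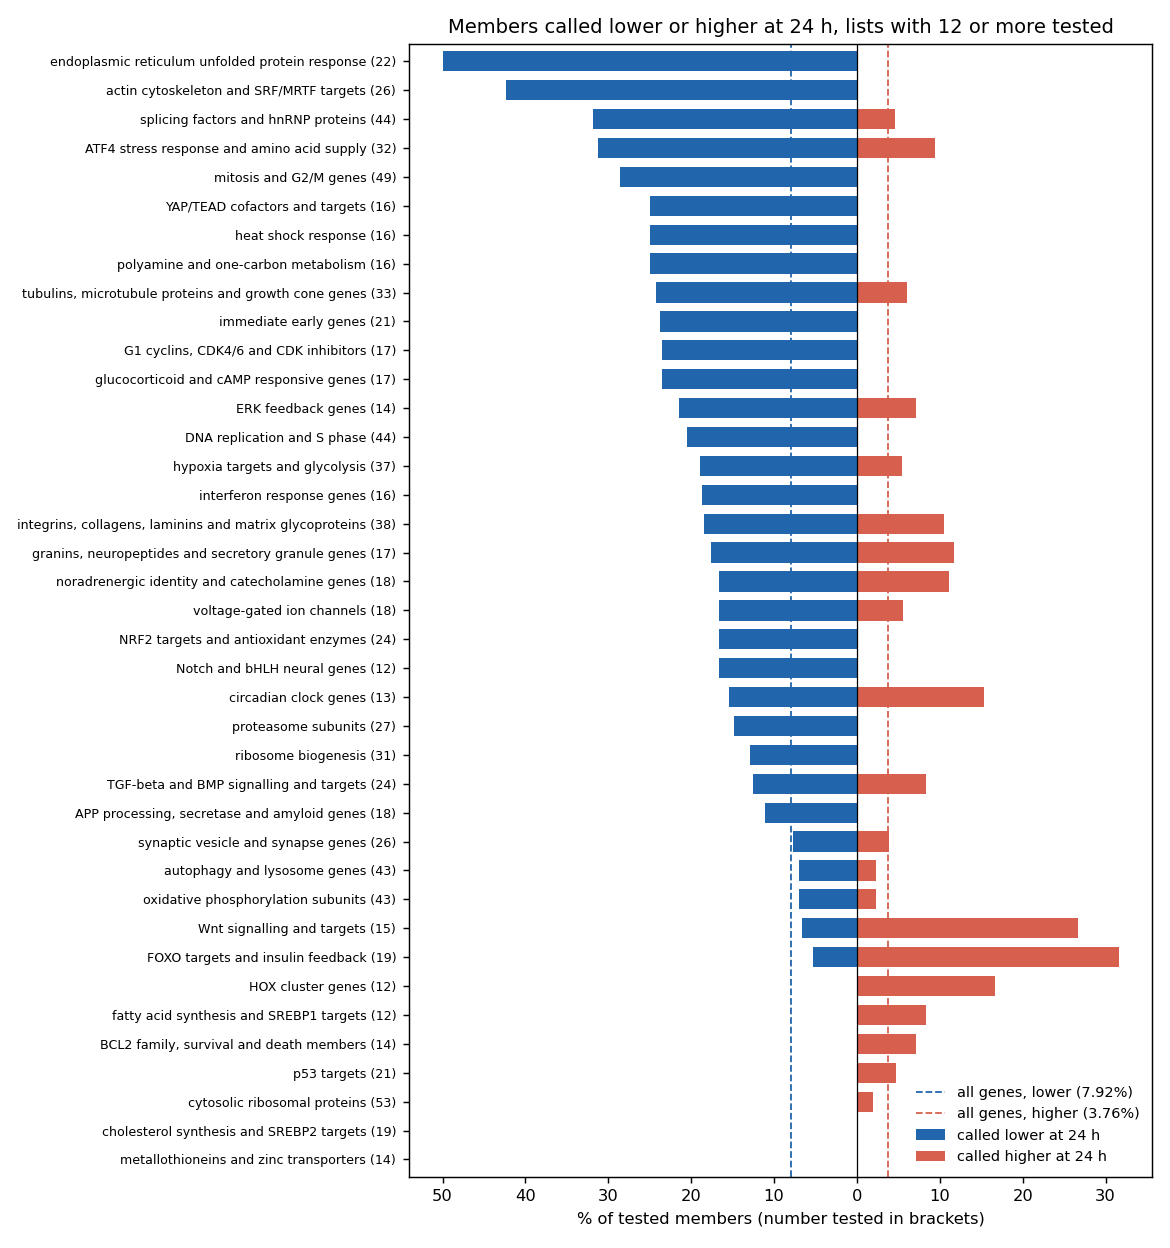
Bars give the percentage of tested members called lower (left, blue) and higher (right, red) at 24 h in each list with 12 or more tested members, and dashed lines give the same for all genes, 7.92% lower and 3.76% higher. ER folding (50%) and actin (42.3%) genes stand furthest to the left and FOXO targets (31.6%) furthest to the right. The lists were chosen with earlier results of these data known.

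Neuronal and noradrenergic genes did not move as one. Of 18 noradrenergic genes 3 were called lower (16.7%) and 2 higher (11.1%), and of 17 granin and neuropeptide genes 3 lower (17.6%) and 2 higher (11.8%). Of 26 synaptic genes 2 were lower (7.69%) and 1 higher (3.85%), near the 7.92% and 3.76% of all genes. The medians of these lists were at most 0.02 in size. DBH, which makes noradrenaline from dopamine, read 10.09, 10.38 and 10.31 at 6 h and 9.62, 9.76 and 9.90 at 24 h (−0.50, SE 0.09, adjusted p = 0.00275). PHOX2A, a master factor of the lineage, fell by 0.44 and TBX2, a partner in its circuit, by 0.50. The 3 falls of the neuropeptide list were secreted products: GAL, galanin, read 10.01, 10.24 and 9.84 at 6 h and 9.23, 9.38 and 9.05 at 24 h (−0.81), NPY, neuropeptide Y, fell by 0.56, and SCG2, a granin, by 0.56, each in all 6 leave-one-out fits. The other called rises of these lists were CYB561 and SNAP25, and the synaptic falls were DLG4, whose 24 h mean (3.47) lay below the filter level, and GPHN. These 4 calls were all lost without 24 h replicate 1 (adjusted p 0.0618 to 0.125) or 3 (0.0667 to 0.0957), and each without 2 or 3 other control arrays (0.0543 to 0.161), and CYB561 had a change of −0.18 without probe sets marked _x_at or _s_at. STMN2, a growth cone protein that regulates microtubules, rose by 0.34 and GAP43, another growth cone protein, fell by 0.59. The call of STMN2 was lost without 24 h replicate 3 (adjusted p = 0.0949) or 6 h replicate 2 (0.107), and that of GAP43 without 24 h replicate 3 (0.0538). The other probe set of STMN2, about as bright, had a change of 0.62 (limma, adjusted p = 9.86e-05 over all probe sets). In the peptide arrays SCG2 and GAP43 had changes of −0.01 and 0.00, and the difference passed for neither.

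Tubulin and microtubule genes had 8 of 33 called lower (24.2% against 7.92% of all genes) and 2 higher (6.06% against 3.76%). TUBB6 read 10.43, 10.49 and 10.27 at 6 h and 9.75, 9.91 and 9.66 at 24 h (−0.62, adjusted p = 0.000295), TUBB4B fell by 0.52, TUBB2A by 0.49 and TUBB by 0.48, each without overlap and in all 6 leave-one-out fits. TUBB and TUBB4B were read from _x_at probe sets, and tubulin paralogs share much of their sequence, so which of them carries the signal is uncertain. APP, the precursor of amyloid-β, fell by 0.89 in the probe set read here (10.69, 10.61 and 10.75 at 6 h and 9.71, 9.71 and 9.96 at 24 h, SE 0.17, adjusted p = 0.00297), but its other probe sets did not pass: one about as bright (mean level 10.01) had a change of −0.04 (adjusted p = 0.901 over all probe sets), and a dimmer one had 0.51 (0.236). Without the marked probe sets the call was lost (adjusted p = 0.898). MAPT, the gene of tau, did not pass (0.23, adjusted p = 0.53).

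Of 19 genes of cholesterol synthesis 0 were called by limma in either direction (2 at an unadjusted p under 0.05, median 0.09, changes from −0.34 to 0.52), while 11 were called higher in the peptide arrays, where the median was 0.46. HMGCS1, which makes HMG-CoA, read 7.69, 7.41 and 7.72 at 6 h and 7.65, 7.76 and 7.71 at 24 h (0.10, SE 0.22), against a change of 1.32 in the peptide arrays, and the difference passed for 0 of the 19 genes (9 at an unadjusted p under 0.05, lowest adjusted p 0.122). Glycolysis and hypoxia genes had 7 of 37 called lower (18.9% against 7.92% of all genes) and 2 higher (5.41% against 3.76%). PFKP, a phosphofructokinase, fell by 0.55, ALDOA, aldolase A, by 0.61, and BNIP3L, a mitophagy receptor, rose by 0.37. Respiratory chain subunits had 3 of 43 lower (ATP5F1B, NDUFC1 and UQCRC1) and 1 higher (SDHD), shares near those of all genes. Of these calls that of SDHD was lost without any 1 control array (0.0615 to 0.171), and those of NDUFC1 and ATP5F1B without 24 h replicate 1 or 6 h replicate 2 or 3, among 5 and 4 arrays in all (0.0501 to 0.104). The thioredoxin inhibitor TXNIP did not pass in the probe set read here (0.43, adjusted p = 0.0667), while its other probe sets had changes of 0.88 (adjusted p = 0.00255 over all probe sets) and 0.46 (0.076). TXNRD1, thioredoxin reductase, fell by 0.56. GAPDH, often used as a reference gene, had a change of 0.06 (SE 0.10). TH was below the level of the filter.

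Signalling lists held few calls each, to be read against 3.76% higher and 7.92% lower among all genes. Of 24 genes of TGF-β and BMP signalling 2 were called higher (TGFB3 and BMPR1B) and 3 lower (ID4, SMAD1 and SMAD7), or 8.33% and 12.5%, and SMAD1 lost its call without 24 h replicate 1 or 3 or 6 h replicate 1 or 3 (adjusted p 0.0592 to 0.153). ID4, a target of BMP signals that blocks bHLH factors, read 8.28, 8.25 and 7.77 at 6 h and 7.42, 7.21 and 6.96 at 24 h (−0.90, adjusted p = 0.00807), and SMAD7, the inhibitor of the TGF-β pathway, read 8.66, 8.66 and 8.47 at 6 h and 8.05, 7.98 and 7.80 at 24 h (−0.66, adjusted p = 0.00123), and both kept their call in all 6 leave-one-out fits. Among 17 glucocorticoid and cyclic AMP responsive genes 4 were called lower (ERRFI1, FKBP5, PDE4B and SGK1) and 0 higher, those of ERRFI1 and PDE4B lost without 24 h replicate 1 or 3 or 6 h replicate 2, the first also without 24 h replicate 2 or 6 h replicate 3 and the second without 6 h replicate 1 (0.0505 to 0.105). FKBP5, a cochaperone of the glucocorticoid receptor, read 8.30, 8.40 and 8.36 at 6 h and 7.84, 8.05 and 7.80 at 24 h (−0.45). Of 24 antioxidant genes under NRF2, 4 were lower (GSTP1, KEAP1, SRXN1 and TXNRD1) and 0 higher, those of KEAP1 and SRXN1 lost without 24 h replicate 2 or 3 or 6 h replicate 2, the first also without 6 h replicate 1 and the second without 6 h replicate 3 (0.0607 to 0.211). GSTP1, a glutathione transferase, fell by 0.48. Of 16 polyamine and one-carbon genes 4 were lower (MTHFD1, ODC1, SHMT2 and SRM), those of MTHFD1 and SRM lost without 24 h replicate 1 or 3 or 6 h replicate 2, the first also without 24 h replicate 2 or 6 h replicate 1 (0.0601 to 0.126). ODC1, the first enzyme of polyamine synthesis, read 11.32, 11.46 and 11.48 at 6 h and 10.96, 11.20 and 11.12 at 24 h (−0.32). Of 18 ion channel genes 3 were lower (CACNG4, KCNH2 and SCN9A) and 1 higher (CACNA2D2), and of 43 autophagy and lysosome genes 3 were lower (ATG7, CTSB and TFE3) and 1 higher (CTSL). The channel calls other than that of KCNH2 were lost without 6 h replicate 2 (0.0505 to 0.103) and 2 or 3 other control arrays (0.0663 to 0.187). ATG7 lost its call without any 1 control array (0.0546 to 0.18) and CTSL without 24 h replicate 1 or 6 h replicate 1 or 2 (0.0508 to 0.0834). KCNH2, the hERG potassium channel, fell by 0.56, and TFE3, a factor that drives lysosome genes, by 0.82. The other probe set of KCNH2, about as bright, had a change of −0.18 (limma, adjusted p = 0.4 over all probe sets). The other probe sets of CTSB went both ways (−0.35, −0.04, 0.13 and 0.35). Among 21 p53 targets 1 was called higher (TP53INP1, lost without 24 h replicate 3, 0.0899, or 6 h replicate 2, 0.073) and 0 lower, and among 14 metallothioneins and zinc transporters limma called 0 in either direction (0 at an unadjusted p under 0.05).

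The peptide arrays give a second view of the same hours with no shared array, although there the form of the peptide changed with the hours and both contrasts draw on 1 estimate of each gene's spread. Of the genes called in the controls, 1273 of 1375 (92.6%) had the same sign in the peptide arrays, against 71.3% of all genes. Called in the same direction in both were 712 genes, 198 higher and 514 lower, which is 51.8% of the control calls and 39.9% of the 1783 peptide calls (15.2% of genes, 6.54% higher and 8.62% lower), and 5 were called in opposite directions (CERK, JUND, PLK2, RNF145 and SPDYE2, named after their values were seen). Of those 5, JUND, PLK2, RNF145 and SPDYE2 lost their control call when some single control arrays were left out. The rises of the controls had a median of 0.30 in the peptide arrays and the falls one of −0.36. The 5′ part of 18S read 10.11 to 10.66 in the oligomeric 6 h arrays and 11.80 to 11.85 in the fibrillar 24 h arrays. BioB read 7.99 to 8.19 and 7.57 to 7.82, while the middle and 3′ parts of 18S overlapped. With controls and peptide arrays pooled, the 5′ part and BioB differed between the hours (exact permutation test, 6 against 6 arrays, p = 0.00216 for each, adjusted p = 0.00974). By the same permutation test the middle part of 18S (p = 0.00649, adjusted p = 0.0195) and GAPDH 3′ less 5′ (p = 0.0173, adjusted p = 0.039) differed too. The other measures did not pass. That test does not address the peptide arrays alone. The part of these measures in the agreement between controls and peptide arrays was not tested.

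**Figure D5:**
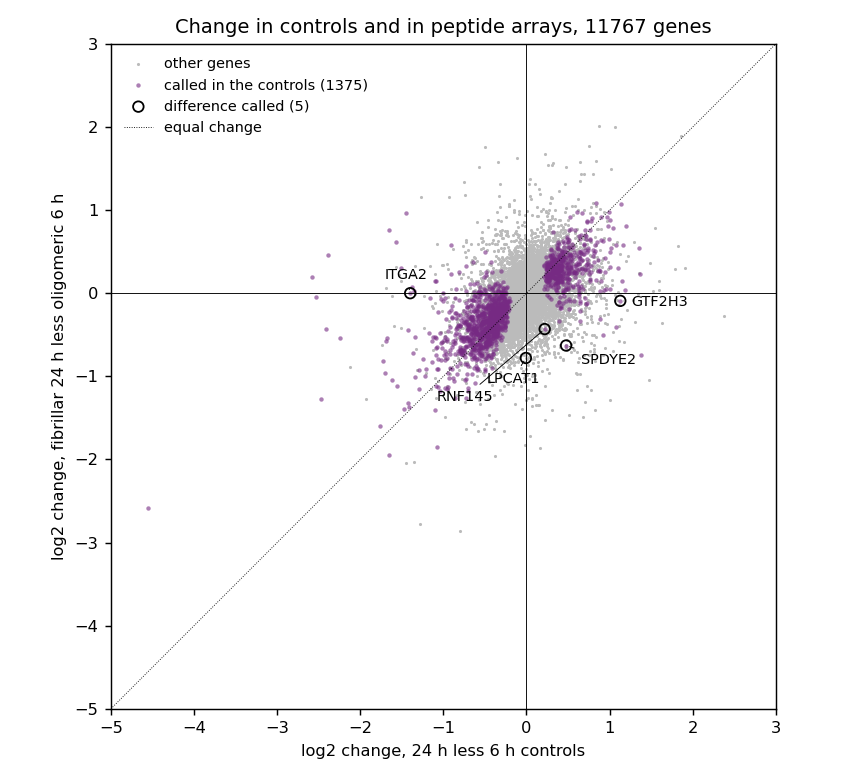
Each point is a gene, with its log2 change from 6 h to 24 h in the controls on the horizontal axis and from oligomeric 6 h to fibrillar 24 h arrays on the vertical axis, and the dotted line marks equal change. The 1375 genes called in the controls lie mostly in the lower left and upper right, and circles mark the 5 genes whose changes differed by the test.

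A difference between the change in peptide arrays and that in controls passed for 5 genes (0.0425%, with 1004 at an unadjusted p under 0.05): GTF2H3, ITGA2, LPCAT1, RNF145 and SPDYE2. ITGA2 fell in the controls, while its values with peptide were 9.69, 9.78 and 9.52 at 6 h and 10.08, 9.15 and 9.76 at 24 h, a change of 0.00. LPCAT1, a lysophospholipid acyltransferase, had 8.69, 8.77 and 8.69 at 6 h and 8.75, 8.60 and 8.77 at 24 h, a change of −0.01, against −0.78 with peptide. The differences of ITGA2 and LPCAT1 were 1.40 (SE 0.23) and −0.77 (SE 0.12), each with an adjusted p of 0.0367. All 5 depended on single arrays. With 24 h control replicate 1 or 3 or 6 h control replicate 2 or 3 left out, 0 differences passed. The same held without fibrillar replicate 3 or any 1 of the oligomeric replicates. Without 6 h control replicate 1, 1 passed, and it was not among the 5. Without 24 h control replicate 2, 6 passed, 4 of them among the 5. Without fibrillar replicates 1 and 2, 29 and 64 passed, each time with all 5. The highest adjusted p among those fits was 0.111 to 0.151 for the 5 genes.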

How the data were processed

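Total RNA of 12 samples of SH-SY5Y cells was read on 12 Affymetrix arrays, in 4 groups of 3 by their treatment labels. The deposited values are log2 signals per probe set that the authors computed by MAS5 (submitters' processing notes, per the labels; no version). The trimmed mean signal (between the 2nd and 98th percentiles) was the same on every array, so no further normalization was applied. MAS5 scales each array to 1 target, so a change shared by most genes cannot be seen. Detection calls were not used. With 3 arrays a group, precision is limited by their number.

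A model of the 4 group means was fitted to all genes with limma 3.58.1 (eBayes with trend, R 4.3.3), with Benjamini-Hochberg adjustment and a threshold of 0.05, and was tested on simulated data. Array measures had exact permutation tests. The members and gene lists were chosen with earlier results of these data known. Named genes were the 10 largest and 8 smallest-p changes a direction whose groups lay apart, up to 4 called members a direction of each list, 20 set genes, and genes whose time change differed with peptide. Exceptions are marked. Alternatives changed the scaling, offset, filter, probe set choice, variance prior, weights, covariate, threshold, replicate block and arrays used.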

Additional observations from a re-analysis of the deposited data

Results flagged for a closer look

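For 5 genes the change from 6 h to 24 h differed between the peptide arrays and the controls by limma's test of the difference (peptide change less control change). The differences were −1.22 for GTF2H3 (SE 0.18, adjusted p = 0.0219), 1.40 for ITGA2 (SE 0.23, adjusted p = 0.0367), −0.77 for LPCAT1 (SE 0.12, adjusted p = 0.0367), −0.65 for RNF145 (SE 0.09, adjusted p = 0.0219) and −1.11 for SPDYE2 (SE 0.18, adjusted p = 0.0367). GTF2H3 rose by 1.13 in the controls against −0.09 with peptide, and without probe sets marked _x_at or _s_at its difference was 0.14 (adjusted p = 0.901). With the mean of probe sets per gene the difference of ITGA2 was 1.01 (limma, adjusted p = 0.167). Of the 5 genes only LPCAT1 passed there (0.0483). RNF145 and SPDYE2 were higher at 24 h in the controls (0.22 and 0.48) and lower with peptide (−0.43 and −0.63). The control call of RNF145 was lost without any 1 control array (limma, highest adjusted p 0.149), and its other probe set had a control change of 0.01. That of SPDYE2 was lost without 24 h replicate 1 or 6 h replicate 1 or 2 (highest adjusted p 0.112). Leaving out 1 of the 12 arrays at a time, the differences were called in 3, 3, 3, 3 and 2 fits, in the order above.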

How the results depend on the processing

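With the 3′ less 5′ covariate, added after seeing the data, 159 genes were called higher and 308 lower, and the counts of genes called lower were 6 for ER folding, 4 for replication, 4 for mitosis and 7 for splicing. An adjusted p under 0.01 gave 135 higher and 415 lower (ATF4 6, replication 4, mitosis 4, splicing 6), and a 1.5-fold minimum gave 124 and 314 (ATF4 6, replication 5, ER folding 5, mitosis 6, splicing 2). An adjusted p under 0.10 gave 737 higher. Centring on the median gave 140 and 1768 (ATF4 16, replication 18, mitosis 23), and a constant variance prior gave 291 higher (replication 5, mitosis 8, splicing 7). Without probe sets marked _x_at or _s_at 571 were lower (actin 7, ATF4 5, ER folding 6, mitosis 9, splicing 7), and averaging all probe sets per gene gave ER folding 7, replication 5 and splicing 7. Leaving out 1 control array gave 178 to 361 higher, 523 to 745 lower, and called lower 8 to 11 actin, 7 to 12 ATF4, 4 to 13 replication, 9 to 10 ER folding, 4 to 14 mitosis and 6 to 10 splicing genes. The difference from the peptide arrays was called for 1 gene with the covariate, 27 with array weights, 13 centred, 0 with a constant prior, 8 with an offset of 16, 3 with the mean of probe sets, 3 after quantile normalization, and 0 to 64 without 1 array (the peptide arrays among these were added after seeing the data). It could not be fitted on the 6 controls alone. Of the 5 genes flagged above, 1 was called with the covariate, 2 centred, 1 with the mean of probe sets and 3 after quantile normalization. All 5 were called with array weights and with the offset. Signs turned for CDK6 (0.47), ENO1 (0.15) and HSP90AB1 (0.21) with the mean of probe sets, and for CYB561 (−0.18), SF1 (0.29) and SF3B1 (−0.054) without the marked probe sets. The cause was not tested.

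With the replicate number as a block, 533 genes were called higher and 1037 lower, 14 replication genes were lower, and 3 differences were called. The labels do not say what a number shares, and same-numbered controls had correlations of deviations of 0.06, 0.08 and 0.04, so the numbers were not taken as pairs. Each sample correlated best with its own number, a hint from the data and not from the design.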
